A study of Mus musculus with 21 samples.

Results

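The telencephalon of linc-Brn1b-/- mouse embryos was compared with that of wild-type embryos at E13.5, when the cortex holds dividing progenitors and the first deep-layer neurons. Of the 40770 rows of the linc-Brn1b table, 17660 carried the status OK at E13.5, which Cuffdiff gives to a gene with enough fragments to be tested, and these rows are the genes described here. The comparison rests on 4 of the 21 libraries of the series, 2 wild-type and 2 linc-Brn1b-/-, each made from whole telencephalon. The deposited table holds 1 FPKM value (fragments scaled to transcript length and to the number of mapped fragments) per genotype, so the spread between embryos and the depth are unknown, no test was possible, and every difference below is a description of these libraries. A difference is log2(FPKM + 1) in linc-Brn1b-/- minus log2(FPKM + 1) in wild type, and a gene is called past 2-fold when that difference is at least 1 in size.

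In linc-Brn1b-/- embryos a cassette carrying the lacZ reporter and a neomycin resistance gene under the human ubiquitin promoter stands in place of the lincRNA. The strain was made in hybrid ES cells of 129S6SvEv and C57BL/6N and crossed 1 generation to C57BL/6J, so both genotypes can carry segments of either background. Whether each library came from a single embryo or a pool is not given in the sources used here. Both E13.5 groups share the tissue, the age and the library kit. They differ by the deletion and, as the sex-linked genes described further on show, also by sex. The same strain was also sequenced at E15.5, again as telencephalon, and at P7 as brain, with other libraries. The labels list 3 linc-Brn1b-/- libraries at E15.5 and the methods 2, and which entered the deposited value is not known.

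linc-Brn1b is a long intergenic noncoding RNA next to Pou3f3, also called Brn1, which encodes a POU class III transcription factor. Pou3f3 and its relative Pou3f2 are expressed in cortical progenitors and in upper-layer neurons, and act in neuron production and migration. In the developing cortex, apical progenitors give rise to intermediate progenitors. Deep-layer neurons are produced first and upper-layer neurons later, and the study describes the upper-layer neurons as coming mainly from intermediate progenitors.

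The table places linc-Brn1b on mm9 at chr1:42763906-42770299, a span of 6394 bp, and lists a cDNA entry, AK011913, over exactly the same span. Reads of both rows come from the same stretch and cannot be assigned to 1 of them with certainty. The assays the study designed to score loss of the allele lie inside it, and their reference sequence is shown, read from mm9 on the minus strand. Capitals mark the primer sites at both ends of each amplicon. The upstream assay covers 65 bp at chr1:42769960-42770024 and the downstream assay covers 107 bp at chr1:42764079-42764185.
TU: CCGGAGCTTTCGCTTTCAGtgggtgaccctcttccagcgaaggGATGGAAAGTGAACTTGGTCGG
TD: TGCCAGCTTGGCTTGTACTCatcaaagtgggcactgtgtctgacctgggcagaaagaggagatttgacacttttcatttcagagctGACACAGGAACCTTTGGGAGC
The RT-PCR primers TTTTCCACGTTCTTTTTGCTC and CCATCTGCAGGGAAAGTTACA, shown because they read the transcript itself, match the minus and the plus strand at the ends of a 3875 bp stretch of the same locus, chr1:42765214-42769088. Of the 20 FISH probes designed against linc-Brn1b, 11 match mm9 exactly inside the span, each on the plus strand, so they are complementary to a transcript of the minus strand. Pou3f3 lies on the plus strand.

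The deletion was visible in the RNA. linc-Brn1b measured 1.60 FPKM in wild type and is listed at 0 in linc-Brn1b-/-, a difference of -1.38. AK011913 went from 8.71 to 0.0267 FPKM, a difference of -3.24. The size of both differences is set by the pseudocount, and with 0.1 FPKM in place of 1 FPKM they were -4.09 and -6.12. The row linc-Mrps9-1, the next one beyond the deletion, did not have enough fragments for a call and went from 0.0917 to 0.00317 FPKM.

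Pou3f3 was lower in linc-Brn1b-/- telencephalon, at 36.5 FPKM against 81.5 FPKM in wild type, a difference of -1.14 or 2.20-fold. Over all genes with OK status, 1.23% were lower past 2-fold and 0.357% were higher past 2-fold. The noncoding transcript 2900092D14Rik, whose row begins at chr1:42757181 just beyond the end of Pou3f3, went from 25.2 to 10.6 FPKM, a difference of -1.18 that lies beside that of Pou3f3. The lincRNA on the other side of Pou3f3, linc-Brn1a (row 2610017I09Rik), was higher, at 245 FPKM against 165 FPKM, a difference of 0.57. Transcripts to the low-coordinate side of linc-Brn1b thus differed in opposite directions, with Pou3f3 and 2900092D14Rik lower and linc-Brn1a higher.

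Of the 26 rows that start within 1 Mb of linc-Brn1b, 15 had OK status, 4 of them were lower past 2-fold and 0 were higher. These 4 were linc-Brn1b, AK011913, Pou3f3 and 2900092D14Rik, so 2 of the 13 rows outside the deleted span passed 2-fold. The lincRNA rows on the linc-Brn1a side were all higher without passing it. linc-Pou3f3-6 went from 4.22 to 8.43 FPKM, a difference of 0.85 and the only one of the 15 rows higher past 1.5-fold. linc-Pou3f3-1 went from 0.503 to 1.18 FPKM (0.54) and linc-Mfsd9-4 from 0.208 to 0.349 FPKM (0.16), both at low levels, while linc-Pou3f3-5 was almost level (1.32 to 1.39 FPKM, 0.04). On the high-coordinate side all differences were small. Mrps9, a mitochondrial ribosomal protein gene, was 23.4 and 20.9 FPKM (-0.15), Gpr45 7.51 and 7.97 FPKM (0.07), Tgfbrap1 12.4 and 14.6 FPKM (0.22), AI597479 17.6 and 16.8 FPKM (-0.06), Fhl2 1.48 and 0.982 FPKM (-0.32), and Nck2, an adaptor of tyrosine kinase signalling, 22.5 and 21.5 FPKM (-0.06).

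**Figure D1:**
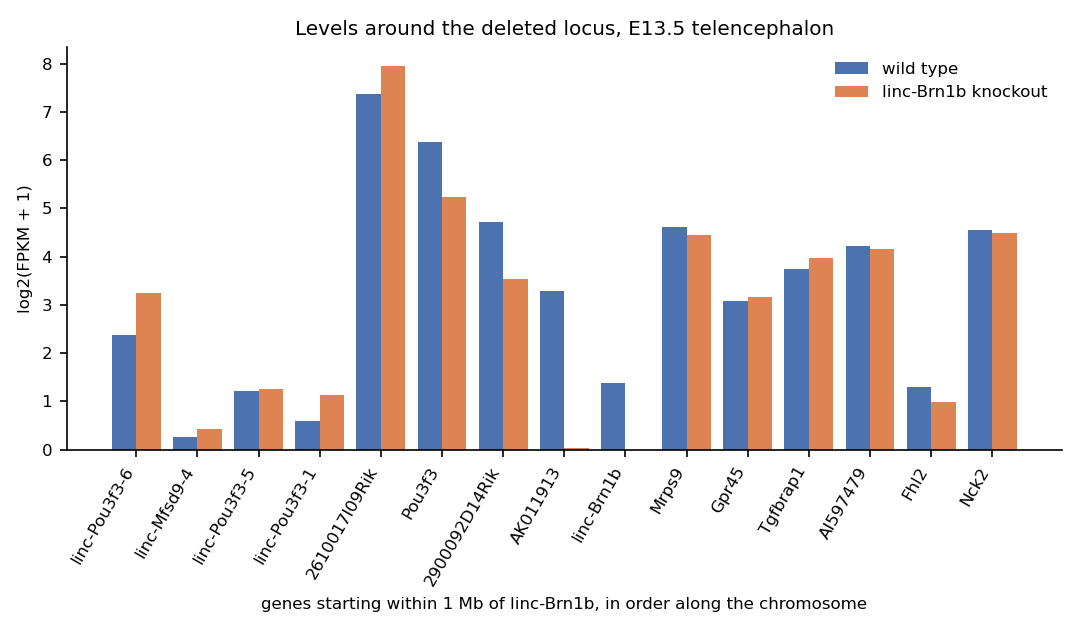
Level in wild type (blue) and linc-Brn1b-/- (orange) of the 15 genes with OK status that start within 1 Mb of linc-Brn1b, in chromosome order. The y axis is log2(FPKM + 1), each bar is the 1 deposited value per genotype, and no error can be drawn. AK011913 and linc-Brn1b are near or at 0 in the knockout, Pou3f3 and 2900092D14Rik are about 1 unit lower, and the linc-Brn1a row 2610017I09Rik is 0.57 higher.

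The other POU class III genes differed less than Pou3f3 and not in 1 direction. Pou3f2 (Brn2), the closest relative of Pou3f3 in the cortex, was higher in linc-Brn1b-/-, at 30.6 FPKM against 20.2 FPKM (0.57). Pou3f4 was 20.3 against 17.1 FPKM (0.24), and Pou3f1 (Oct6) was 6.97 against 7.90 FPKM (-0.16). Pou3f3 was also the lowest of the family, with Pou3f2 and Pou3f4 above 0, at E15.5, where the differences were -1.47 for Pou3f3, 0.13 for Pou3f2, 0.19 for Pou3f4 and -0.11 for Pou3f1, and at P7, where they were -1.80, 0.43, 0.23 and 0.14.

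Pou3f3 and rows beside it passed 2-fold at every age. Of the 281 genes past 2-fold at E13.5, 248 had OK status at all 3 ages, and 3 of these were past 2-fold in the same direction at each age. They were AK011913, Pou3f3 and 2900092D14Rik, of which 2900092D14Rik had differences of -1.39 at E15.5 and -1.62 at P7. For linc-Brn1a the difference of 0.57 at E13.5 was below those of 1.85 (E15.5) and 2.49 (P7).

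Away from the locus the E13.5 comparison was lopsided. Of the 17660 genes, 63 were higher and 218 lower past 2-fold, and 233 were higher and 778 lower past 1.5-fold, or 1.32% and 4.41%. Among rows with a coding length, 14 were higher and 187 lower past 2-fold, against 22 higher and 59 lower when each difference was taken from the median at the same coding length. At E15.5, by the same rule, 13 genes were higher and 25 lower past 2-fold among 17434, and at P7 68 were higher and 78 lower among 18805. Most genes nonetheless leaned slightly the other way at E13.5, since 10645 were higher and 7015 lower, with a median difference of 0.06 and quartiles of -0.11 and 0.19.

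Of the 218 genes lower past 2-fold, 72 were cytosolic ribosomal protein or oxidative phosphorylation genes, both made of short and highly expressed genes. Cytosolic ribosomal proteins, which build the translating ribosome, were lower in 75 of 75 members, with a median difference of -1.04. Of these, 43 were lower past 2-fold (57.3%, against 1.23% of all genes) and 64 past 1.5-fold (85.3%, against 4.41%). Rpl41 went from 1627 to 436 FPKM (-1.90), Rps16 from 786 to 226 FPKM (-1.79), Rplp1 from 1123 to 327 FPKM (-1.78) and Rps12 from 1340.2 to 445 FPKM (-1.59). Those furthest from this were Rpl4, a long member, at 833 and 754 FPKM (-0.14) and Rpl5 at 388 and 338 FPKM (-0.20). Together, the 75 genes summed to 56024 FPKM in wild type and 28078 FPKM in linc-Brn1b-/-. All rows, whatever their status, summed to 434191 FPKM in wild type and 381511 FPKM in linc-Brn1b-/-.

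Nuclear genes of oxidative phosphorylation, which encode subunits of respiratory complexes and ATP synthase, were lower in 72 of 74 members, with a median difference of -0.85. Lower past 2-fold were 29 (39.2%, against 1.23% of all genes), and past 1.5-fold 57 (77.0%, against 4.41%). Atp5e, the epsilon subunit of ATP synthase, went from 311 to 77.4 FPKM (-1.99). The complex I subunits Ndufb2 and Ndufa2 went from 46.6 to 13.4 FPKM (-1.73) and from 129 to 45.8 FPKM (-1.47). Atp5b, a large catalytic subunit with the highest wild-type level of the list, went from 556 to 380 FPKM (-0.55). The 2 members above 0 were Ndufs1 (41.3 and 43.5 FPKM, 0.07) and Ndufa10 (64.7 and 66.1 FPKM, 0.03).

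The difference moved with the length of the coding sequence across the whole table. Of 14685 genes named by a symbol, 13621, or 92.8%, had a coding length in GENCODE on mm9, and 13742 rows in all. These rows were put into 10 groups of equal size by coding length. In the shortest group, from 36 to 549 bp, the median difference was -0.33, in the third group -0.06, in the fifth 0.03, and in the longest group, from 3534 bp, 0.15. The shortest group held 147 of the 187 genes with a coding length that were lower past 2-fold, or 78.6%. Within that group the difference was larger at higher wild-type levels. The wild-type level is itself part of the difference, and the pseudocount shrinks differences at low levels. Its median was -0.13 for 517 genes under 10 FPKM in wild type, -0.40 for 646 genes from 10 to 100 FPKM and -0.79 for 212 genes at 100 FPKM or more. Without the ribosomal and oxidative phosphorylation genes, the 140 remaining genes at 100 FPKM or more still had a median of -0.60. Over all genes with a coding length, the medians were 0.04 under 10 FPKM, 0.04 from 10 to 100 FPKM and -0.23 at 100 FPKM or more.

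Neither later age had this slope at the same size. From the shortest to the longest group, the median ran from 0.03 to -0.02 at E15.5 and from -0.06 to 0.08 at P7. Spearman's rho between coding length and difference, across genes measured in the same libraries at each age, was 0.47 over 13742 genes at E13.5, and -0.23 over 13392 (E15.5) and 0.15 over 13523 (P7) at the later ages, and genes are not independent replicates. Ribosomal protein genes had a median of 0.07 at E15.5 and -0.28 at P7, and oxidative phosphorylation genes 0.05 and -0.04. When each difference was set against the median of genes of the same coding length, the ribosomal list had a median of -0.79 with 74 of 74 members lower, and the oxidative phosphorylation list a median of -0.59 with 73 of 74 lower. Which part of these differences goes with transcript length in the libraries, and which with the genotype, was not tested.

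**Figure D2:**
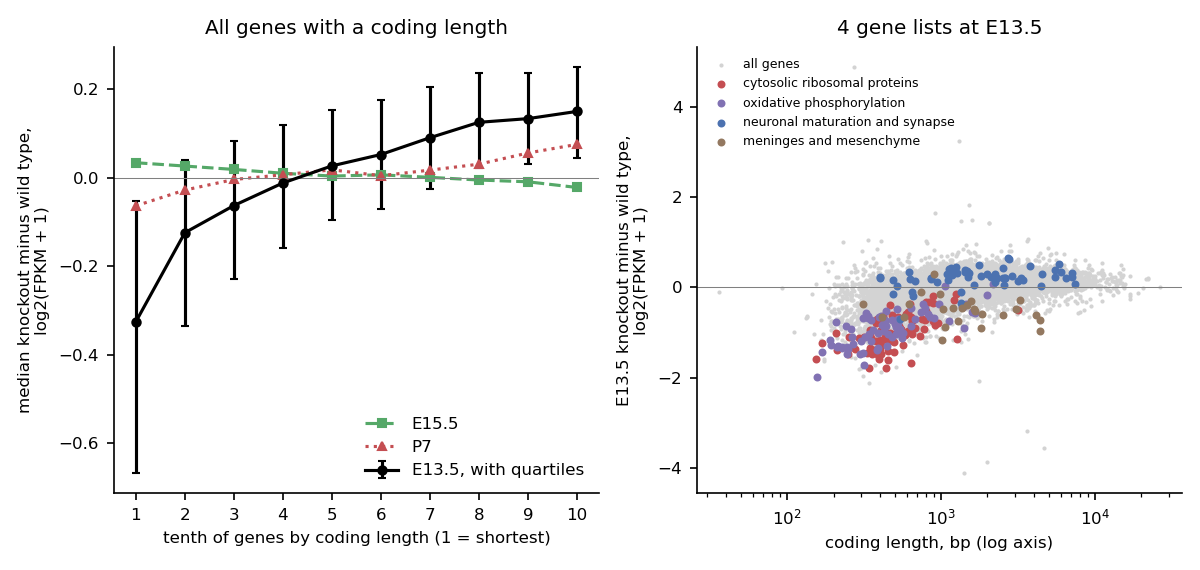
Left, median knockout minus wild-type difference, log2(FPKM + 1), in 10 equal groups of 13742 genes ordered by coding length, with quartile bars for E13.5 (black) and medians for E15.5 (green) and P7 (red); right, E13.5 difference of each gene against coding length on a log axis, with 4 lists in colour. At E13.5 the median climbs from -0.33 in the shortest group to 0.15 in the longest, and ribosomal and oxidative phosphorylation genes sit at the short, low end.

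Genes of cortical neurons were mostly a little higher in linc-Brn1b-/-. Among deep-layer and early cortical neuron genes, 16 of 18 were higher, the median was 0.29 against 0.06 over all genes, and none passed 1.5-fold. Fezf2, which specifies subcerebral projection neurons, was 44.4 against 30.4 FPKM (0.53), and Neurod6, a differentiation factor of glutamatergic neurons, was 219 against 153 FPKM (0.51). Nfib was 119 against 85.4 FPKM (0.47), Sox5 42.5 against 29.5 FPKM (0.51), Tbr1 79.6 against 66.4 FPKM (0.26) and Bcl11b (Ctip2) 53.2 against 42.8 FPKM (0.31). Crym, at 3.27 against 4.44 FPKM (-0.35), and Nxph4, at 13.95 against 14.03 FPKM (-0.01), were the members below 0. Against genes of the same coding length the median was 0.22 with 16 of 18 members above 0.

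Upper-layer neuron genes, some of which progenitors also express, were higher in 13 of 17 members, with a median of 0.28. Unc5d, a receptor of migrating upper-layer neurons, was 7.004 against 4.41 FPKM (0.56), and the cadherin Cdh13 28.8 against 19.1 FPKM (0.57). Cux1 was 66.9 against 64.4 FPKM (0.05) and Cux2 13.48 against 12.4 FPKM (0.12). Pou3f3 was the member that passed 2-fold, in the opposite direction to most of its list. Against genes of the same coding length, the median of the list was 0.14 and 7 of 17 members were below 0.

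Genes of general neuronal maturation and synapses were higher in 54 of 60 members, with a median of 0.23. The glutamate receptor subunits Gria1, at 18.7 against 11.5 FPKM (0.66), and Gria2, at 69.3 against 44.3 FPKM (0.63), were the 2 members higher past 1.5-fold. Others included the adhesion molecule L1cam at 58.1 against 41.5 FPKM (0.47) and Rbfox3 (NeuN) at 23.1 against 17.2 FPKM (0.40). The lowest were Stmn3, at 116 against 188 FPKM (-0.69, past 1.5-fold), and Tubb3, the neuronal beta-tubulin and highest member in wild type, at 678 against 869 FPKM (-0.36). With coding length accounted for, 52 of 60 members were above 0 and the median was 0.18.

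Progenitor genes differed less. Apical progenitor genes were lower in 13 of 20 members, with a median of -0.09 and none past 1.5-fold. Fabp7 (BLBP), a fatty acid binding protein of radial glia, was 348 against 516 FPKM (-0.57), and Hes5, an effector of Notch, 34.1 against 46.9 FPKM (-0.45). Sox2 was 92.6 against 100.4 FPKM (-0.12), Nes 123 against 132 FPKM (-0.10), Vim 503 against 537 FPKM (-0.10), and Pax6 58.4 against 51.5 FPKM (0.18). Against genes of the same coding length the apical list had a median of -0.08, with 14 of 20 members below 0. Intermediate progenitor genes were higher in 12 of 17 members, with a median of 0.14, while 10645 of all 17660 genes were higher. Against genes of the same coding length the intermediate list had a median of 0.08, with 12 of 17 members above 0. Eomes (Tbr2), which defines these cells, was 78.7 against 57.2 FPKM (0.45), and Neurod4 was 3.66 against 2.21 FPKM (0.54), while Neurog2 was 63.5 against 64.8 FPKM (-0.03) and the Notch ligand Dll3 5.99 against 9.23 FPKM (-0.55).

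DNA replication genes were lower in 45 of 50 members, with a median of -0.21. Lower past 1.5-fold were 5 members, or 10% of the list against 4.41% of all genes. These were Rrm2, a subunit of ribonucleotide reductase (73.3 against 130.3 FPKM, -0.82), Dut (25.8 against 41.9 FPKM, -0.68), the G1 kinase gene Cdk4 (289 against 458 FPKM, -0.66), Tyms (20.9 against 33.4 FPKM, -0.65) and Tk1 (24.7 against 38.3 FPKM, -0.61). Pcna, the sliding clamp, was 203 against 291 FPKM (-0.52). Against genes of the same coding length, 48 of 50 members were below 0 and the median was -0.26. Mitosis and cytokinesis genes were divided, 26 higher and 30 lower with a median of -0.03. The 3 members lower past 1.5-fold, 5.36% of the list against 4.41% of all genes, were Pttg1 (securin) at 5.36 against 10.7 FPKM (-0.88), Birc5 (survivin) at 39.5 against 63.4 FPKM (-0.67) and the centromeric histone Cenpa at 12.8 against 20.7 FPKM (-0.66), while Top2a was 195 against 189 FPKM (0.04). Against genes of the same coding length the mitosis list moved to a median of -0.12 with 47 of 56 members below 0.

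Lists of other telencephalic cell types had medians near 0. Ganglionic eminence and interneuron genes had a median of -0.07 (11 higher, 16 lower of 27), with Dlx1 at 150 against 135 FPKM (0.15), Gad1, the GABA synthetic enzyme, at 30.4 against 22.6 FPKM (0.41) and Gsx1 at 0.882 against 2.10 FPKM (-0.72). Striatal neuron genes had a median of 0.01 over 16 members, with Meis2 at 113 against 85.2 FPKM (0.40). Cajal-Retzius and preplate genes had a median of 0.00 over 12 members, with Reln (reelin) at 45.6 against 36.3 FPKM (0.32) and Calb2 at 8.21 against 12.8 FPKM (-0.58). Cortical hem and choroid plexus genes had a median of -0.04 over 23 members, with Ttr (transthyretin) at 188 against 146 FPKM (0.37). Oligodendrocyte and astrocyte genes had a median of -0.06 over 17 members, among which Apoe was lower past 2-fold, at 17.9 against 38.7 FPKM (-1.07).

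**Figure D3:**
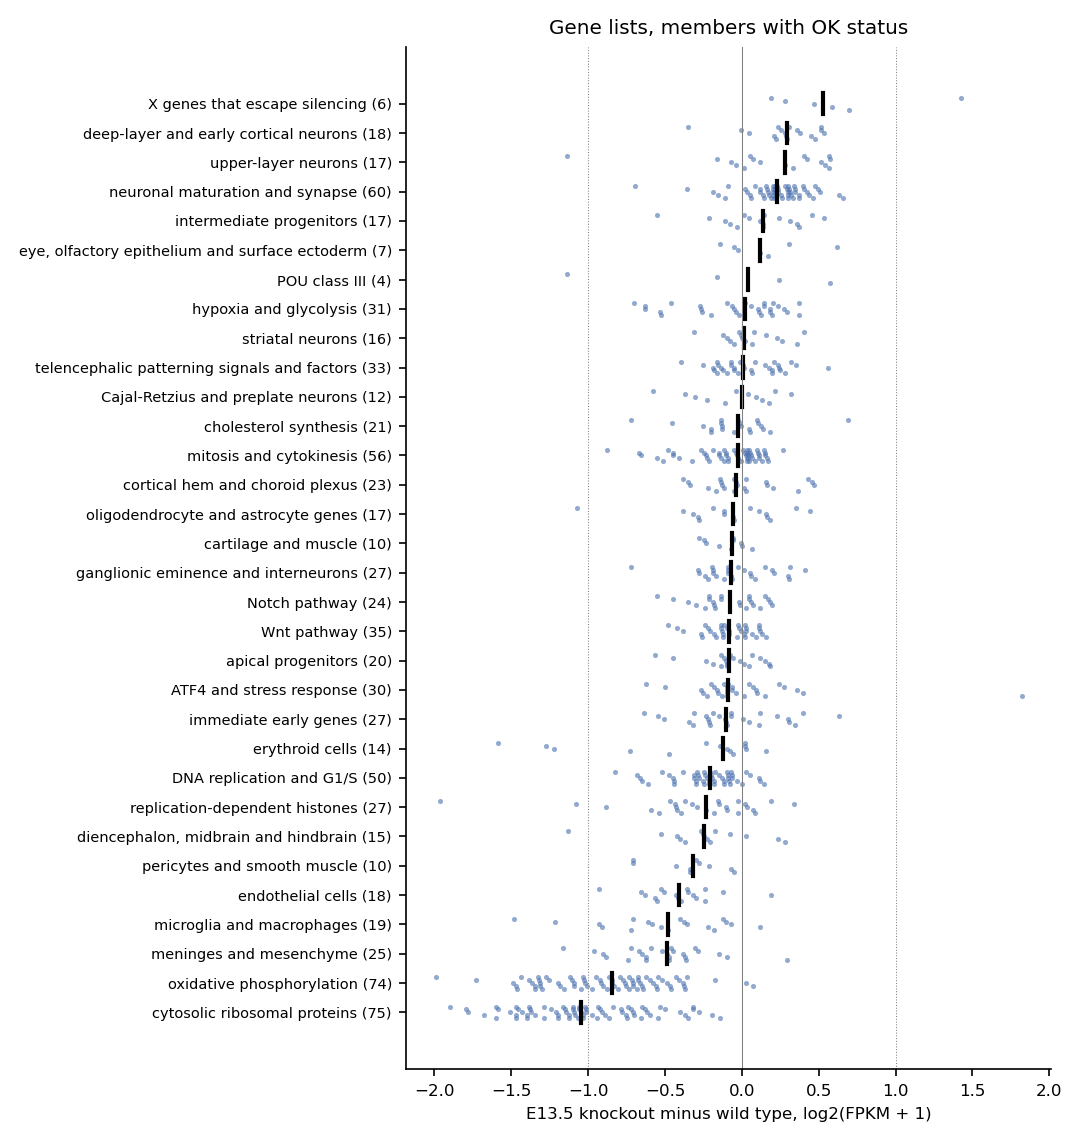
E13.5 knockout minus wild-type difference, log2(FPKM + 1), of every member with OK status in 32 gene lists, with the number of members in brackets, list medians as black bars and 2-fold as dotted lines. Lists are ordered by median, from X genes that escape silencing and cortical neuron genes at the top to ribosomal protein genes at the bottom; the Y-linked list, with a median of -3.72, is not drawn.

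Genes of the non-neural cells in and around the telencephalon were lower as groups. In bulk tissue, fewer cells of a type and less RNA per cell cannot be told apart. Meningeal and mesenchymal genes were lower in 24 of 25 members, with a median of -0.49. Lower past 1.5-fold were 11 members, or 44% of the list against 4.41% of all genes. The collagen gene Col3a1 went from 38.5 to 19.3 FPKM (-0.96), the proteoglycan genes Lum and Dcn from 11.99 to 4.80 FPKM (-1.16) and from 13.2 to 6.68 FPKM (-0.88), Crabp2 from 32.6 to 20.2 FPKM (-0.67), and Igf2 from 46.1 to 29.1 FPKM (-0.65). The 25 members summed to 214 FPKM in wild type and 125 FPKM in linc-Brn1b-/-. Setting genes of the same coding length as the reference left the median at -0.50, with 22 of 25 members below 0.

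Endothelial genes were lower in 17 of 18 members, with a median of -0.41. Cldn5, a tight junction protein of brain vessels, went from 16.5 to 8.19 FPKM (-0.93), the glucose transporter gene Slc2a1 from 44.4 to 28.4 FPKM (-0.63), Ramp2 from 12.98 to 7.88 FPKM (-0.66) and Cdh5 (VE-cadherin) from 12.7 to 8.52 FPKM (-0.53). All 10 pericyte and smooth muscle genes with OK status were lower, with a median of -0.32, and Acta2 and Tagln at -0.71 each were furthest from 0. Microglia and macrophage genes were lower in 18 of 19 members, with a median of -0.48. The lowest members were the chemokine gene Pf4 at 0.997 against 4.59 FPKM (-1.48) and the adaptor gene Tyrobp at 1.15 against 3.995 FPKM (-1.22). The mannose receptor gene Mrc1 was lower past 1.5-fold (1.45 against 3.01 FPKM, -0.71), and Csf1r was 3.79 against 4.58 FPKM (-0.22). Against genes of the same coding length the medians were -0.46 for endothelium (17 of 18 members below 0), -0.39 for pericytes (10 of 10) and -0.36 for microglia (18 of 19). At E15.5 the medians of these lists were -0.08 for meninges and mesenchyme, -0.00 for endothelium, -0.07 for pericytes and 0.05 for microglia, and at P7 -0.22, 0.03, -0.07 and 0.03.

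Globin genes, which mark blood in the dissected tissue, were the lowest of the erythroid genes. Hbb-y went from 982 to 421 FPKM (-1.22), Hbb-b1 from 106 to 34.8 FPKM (-1.58) and Hbb-bh1 from 11.5 to 4.17 FPKM (-1.27), each past 2-fold, Hba-x from 132 to 79.4 FPKM (-0.73) and Hba-a2 from 199.9 to 144 FPKM (-0.47). These 5 genes have coding lengths of 426 to 468 bp. The heme synthesis gene Alas2 was 6.41 against 5.64 FPKM (0.16) and the transferrin receptor gene Tfrc 32.8 against 32.3 FPKM (0.02), and the median over 14 erythroid members was -0.12. That median depended on members near 0 FPKM, being -0.60 with a minimum of 1 FPKM and -0.42 with a pseudocount of 0.1 FPKM.

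Telencephalic markers were present in both genotypes, and some genes listed as markers of neighbouring regions were too. Emx1, a factor of the dorsal telencephalon, was 47.97 and 41.9 FPKM in wild type and knockout, and Dlx2, a factor of the ventral telencephalon, 49.98 and 43.7 FPKM. En1, Hoxa2, Hoxb2 and Hoxb3, markers of midbrain or hindbrain, were listed at 0 in both genotypes. Of 36 markers of diencephalon, midbrain and hindbrain, 15 had OK status, 12 of them were lower and the median was -0.24. The list summed to 52.6 FPKM in wild type and 47.2 FPKM in linc-Brn1b-/-, against 434191 and 381511 FPKM over all rows. The highest of the list in wild type were Otx1, at 14.9 against 14.6 FPKM (0.03), and Lhx9, at 15.4 against 12.9 FPKM (0.24). Whether transcripts of this list came from tissue outside the telencephalon was not tested. Otp, a hypothalamic factor, was lower past 2-fold, at 0.910 against 3.19 FPKM (-1.13). Markers of eye, olfactory epithelium and surface ectoderm had a median of 0.12 over the 7 of 23 with OK status, with the pigment cell gene Dct higher past 1.5-fold at 9.54 against 5.87 FPKM (0.62), and those of cartilage and muscle -0.07 over 10 of 25.

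Differences of signalling pathway genes were small. Notch pathway genes had a median of -0.08 and Wnt pathway genes -0.08, against 0.06 over all genes, and none passed 1.5-fold. Lower were 14 of 24 and 23 of 35 members, while 7015 of all 17660 genes were lower. Against genes of the same coding length, 18 of 24 and 29 of 35 members were below 0, with medians of -0.10 and -0.11. The lowest Wnt members were the receptor gene Fzd10 (1.01 against 1.80 FPKM, -0.48) and Tcf7l2 (4.46 against 6.32 FPKM, -0.42). Telencephalic patterning genes had a median of 0.01 over 33 members, with Fgf18 at 1.87 against 0.944 FPKM (0.56) and Dusp6, a target of FGF signalling, at 7.48 against 10.2 FPKM (-0.40). Immediate early genes, which respond to handling of tissue, had a median of -0.10 over 27 members, with Egr1 at 0.720 against 1.67 FPKM (-0.64) and Nr4a3 at 4.73 against 2.69 FPKM (0.63).

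Hypoxia and glycolysis genes had a median of 0.02 over 31 members, but the glycolytic enzymes Ldha (156 against 255 FPKM, -0.70) and Tpi1 (128 against 198 FPKM, -0.63) were lower past 1.5-fold. Cholesterol synthesis genes had a median of -0.03 over 21 members, with Hsd17b7 at 8.40 against 4.84 FPKM (0.69) and Ebp at 2.89 against 5.41 FPKM (-0.72). ATF4 and stress response genes had a median of -0.09 over 30 members, and Slc7a11, the cystine transporter gene, stood apart at 9.68 against 2.02 FPKM (1.82). At P7 Slc7a11 was again higher, at 14.4 against 8.47 FPKM (0.70), and at E15.5 it was 0.381 against 0.379 FPKM. Replication-dependent histone genes, whose mRNAs carry no poly(A) tail, had a median of -0.23 over 27 members, with Hist1h4i at 5.26 against 23.4 FPKM (-1.96), and a median of 0.08 against genes of the same coding length.

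The genotypes differed in sex. The Y-linked genes Eif2s3y, Ddx3y, Kdm5d and Uty were 16.5, 13.6, 10.9 and 8.23 FPKM in wild type, and in linc-Brn1b-/- Ddx3y is listed at 0, Eif2s3y was 0.00723 FPKM and Uty 0.00609 FPKM, and Kdm5d was 2.4e-07 FPKM. The row linc-4930519F16Rik-1, at chrX:100626856-100680483, had the highest difference among rows with OK status, with 109 FPKM in linc-Brn1b-/- against 0.388 FPKM in wild type (6.30). Its span holds Xist, the RNA of the silenced X chromosome, which GENCODE places on the minus strand at chrX:100655714-100678556. The X-linked genes that escape silencing were higher in 6 of 6 members, with a median of 0.53, among them Mid1 at 37.9 against 13.46 FPKM (1.43, past 2-fold), Kdm6a at 26.3 against 15.9 FPKM (0.70) and Eif2s3x at 150 against 99.5 FPKM (0.59). At E15.5 and P7 the Y-linked genes were instead higher in linc-Brn1b-/-, with medians of 2.38 and 2.36. The row spanning Xist was 56.3 against 121 FPKM in wild type at E15.5 (-1.09), and 40.7 against 87.3 FPKM at P7 (-1.08). The linc-Brn1b-/- groups at these ages thus held both Y-linked RNA and RNA of the Xist span. Mid1 was also higher in linc-Brn1b-/- at P7 (1.24), and its difference was 0.05 at E15.5. At E13.5 genotype and sex cannot be told apart for any gene.

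The 12 highest differences among genes with OK status leave out Gm, RIKEN, linc and accession names. They included small nucleolar RNA rows and rows that share the span of a larger gene, which can be further entries of that gene. Snora69 is listed at 0 in wild type and was 10.2 FPKM in linc-Brn1b-/- (3.49), Snora64 was 91.3 against 34.6 FPKM (1.37), and Rpl39 and Rps2, whose spans hold these rows, were lower (-1.60 and -0.84). Fxy (1.90) shares the span of Mid1, Rtn-1A (1.78) that of Rtn1, whose own row was 276 against 275 FPKM, Masp2 (1.43) that of Tardbp, and N4wbp5A (1.18) that of Ndfip2. Zfp932, a zinc finger gene, was 28.8 against 9.501 FPKM (1.505), Tuba1c, an alpha-tubulin gene, 64.7 against 22.8 FPKM (1.46), and Snora28, in the span of Eif5, 394.8 against 181 FPKM (1.12). The row Slirp was 4.75 against 1.59 FPKM (1.15). Its span also holds the more abundant row 1810035L17Rik, which was lower past 2-fold, at 32.0 against 74.9 FPKM (-1.20). The Slirp row alone therefore does not give the direction of that span.

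The 12 lowest, besides the 4 Y-linked genes, Atp5e, Rpl41 and Hist1h4i, were led by the row CYL2. It went from 72.3 FPKM to a listed 0 (-6.20), and is listed at 0 in both genotypes at E15.5 and P7. CYL2 shares the span of the cyclin gene Ccnd2, whose own row was 217 against 265 FPKM (-0.28). Gas5, a noncoding host gene of small nucleolar RNAs, went from 105 to 16.3 FPKM (-2.62), and linc-Zbtb37-BP, in the same span, from 120 to 32.0 FPKM (-1.88). Rec8, a meiotic cohesin subunit, went from 3.64 to 0.101 FPKM (-2.08), Dynlt1c from 3.36 FPKM to a listed 0 (-2.13), and Snora7a, inside the span of Rpl32, from 5.47 FPKM to a listed 0 (-2.69). Where rows share a span, the split of reads between them was made by the authors' assembly and cannot be checked here.

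Genes past 2-fold at E13.5 were read against the later ages, whose libraries are separate. Of the 204 genes lower at E13.5 with OK status at all ages, 29 were lower at E15.5 and 166 at P7, and their median difference was 0.06 at E15.5 and -0.19 at P7. Of the 44 higher ones, 20 were higher at E15.5 and 34 at P7, with medians of -0.03 and 0.56. Over all genes with OK status, 8620 of 17434 were lower at E15.5 and 9197 of 18805 at P7.

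Some genes past 2-fold at E13.5 were past it in the same direction at P7 while differing by less than 0.3 at E15.5. With OK status at all 3 ages, these were 16 of 44 higher and 6 of 204 lower rows. Rows that share a span, such as Mid1 and Fxy, were counted separately. Over all 18805 genes with OK status at P7, 68 were higher and 78 lower past 2-fold there, or 0.776% in either direction. At E15.5 the quartiles over all genes were -0.04 and 0.05, so small differences there were common. The row linc-Nsfl1c-1 was 181 against 2.35 FPKM at E13.5 (5.77) and 188 against 2.04 FPKM at P7 (5.96), but 2.47 against 2.26 FPKM at E15.5 (0.09). linc-Dbc1 had differences of 5.21, 0.14 and 3.01 in order of age, the enolase-like Gm5506 of 3.24, -0.03 and 2.81, and Tuba1c of 1.46, -0.06 and 3.66. On the lower side, Gas5 had differences of -2.62, -0.04 and -1.57, and Rec8 of -2.08, -0.12 and -2.09. All of these genes were chosen by their values, Tuba1c, Gas5 and Rec8 by their E13.5 difference. The background segments carried by each library were not measured here.

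**Figure D4:**
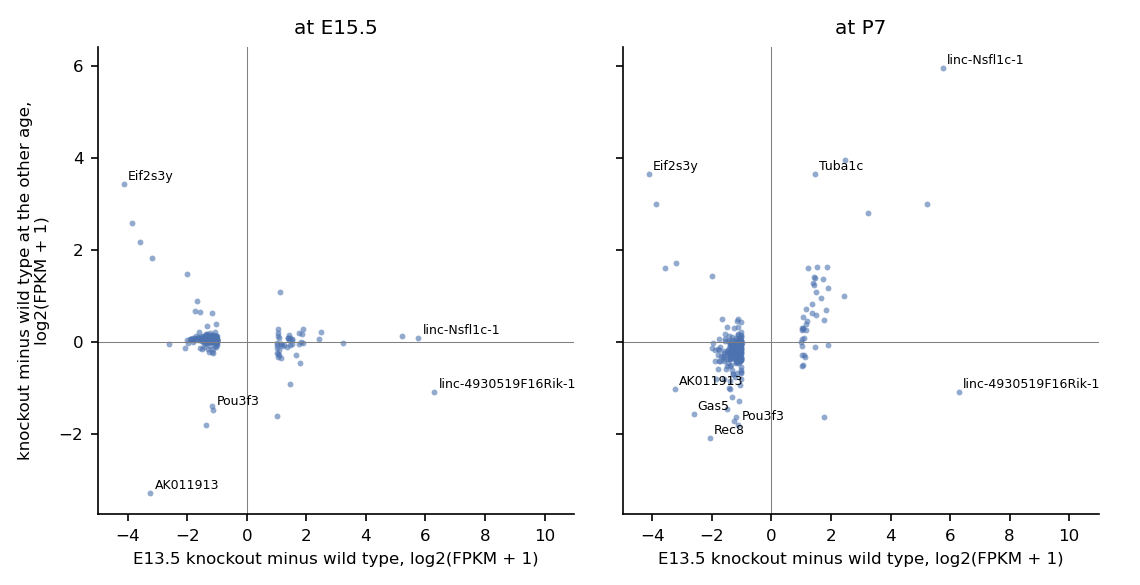
Difference at E15.5 (left) and P7 (right) against the E13.5 difference, all as knockout minus wild-type log2(FPKM + 1), for the 248 genes past 2-fold at E13.5 with OK status at the 3 ages. At E15.5 most points lie along 0 except Pou3f3, AK011913, the sex-linked rows and a few others, while at P7 many of the higher genes, such as linc-Nsfl1c-1 and Tuba1c, are again above 0.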

How the data were processed

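RNA from whole telencephalon, with 2 libraries per genotype at E13.5, was sequenced as 101 bp read pairs from an unstranded TruSeq kit. The authors aligned reads to mm9 with TopHat2 and computed FPKM with Cufflinks 2.0.2 and Cuffdiff, as the submitters' processing notes name them, and deposited 1 FPKM value per group, so replicates were combined before deposit. Rows with OK status were used. The authors' columns of fold changes, test statistics, p-values, q-values and calls were not used. Differences of log2(FPKM + 1) were computed with Python 3.11.15 and pandas 2.3.3, with 2-fold and 1.5-fold thresholds, and the calculation was tested on simulated data. Gene lists, 33 in number, and the genes described were chosen with earlier results of these data known. Named genes are those with OK status within 1 Mb of linc-Brn1b, the 12 highest and 12 lowest differences among genes with symbols, the POU class III genes, and in each list the 2 highest in wild type, the 2 highest and 2 lowest differences and those past 1.5-fold, from which examples are given; a few other defining markers were added. Each list gene was counted once. Coding length is the longest coding sequence in GENCODE vM1 (NCBIM37, the build of mm9), matched by symbol. Comparison with genes of the same coding length used 50 bins. Sequences are from the NCBIM37 genome, with primers from the study's supplementary tables. Depth per library is not given in the sources used here, so no interval or detection limit could be stated.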

Additional observations from a re-analysis of the deposited data

Results flagged for a closer look

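Rows without OK status lay outside the comparison, and 16 of them differed by more than 2-fold between genotypes at E13.5, 4 higher and 12 lower. The highest was Hnrnpc, an RNA-binding protein gene, listed at 0 in wild type and at 171 FPKM in linc-Brn1b-/- with the status FAIL, which marks an estimate that the authors' software did not complete. Small nucleolar RNA rows made up 5 of the 16, from Snora34, at 13.97 FPKM in wild type and listed at 0 in linc-Brn1b-/-, to Snord22, at 3.803 and 31.6 FPKM. A further 5 were rows of 1 span of chromosome 14 with the status HIDATA, each listed at 0 in linc-Brn1b-/-. No use was made of these values in the comparison.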

How the results depend on the processing

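Among genes past the threshold, more were lower than higher under every setting run, while the counts depended on the setting. At 1.5-fold, 1011 genes passed at E13.5, 233 higher and 778 lower. With a pseudocount of 0.1 FPKM, which gives weight to low levels, 676 passed, 226 higher and 450 lower, and 66.6% of them were lower against 77.6%. The next settings were chosen after seeing the data. Summing rows of one span left 31 higher, and restricting to rows with a coding length left 14 higher and 187 lower, so that 93.0% were lower. Among those rows, differences taken from the median at the same coding length passed in 81, 22 higher and 59 lower. For the later ages, a pseudocount of 0.1 FPKM gave 480 genes with OK status throughout, of which 166 kept their direction at E15.5 and 358 at P7, and 1.5-fold gave 941, of which 237 and 701 did. A minimum of 1 FPKM in 1 genotype left the E13.5 counts at 281, 63 and 218. It could not change them, since passing 2-fold with a pseudocount of 1 FPKM already needs at least 1 FPKM in 1 genotype. Near linc-Brn1b, 4 genes passed within 0.5 Mb, 1 Mb and 2 Mb, or 5 at 1.5-fold. Median centring turned the sign of 1 neighbour and of 5 list medians, the pseudocount that of 1, and coding length that of 4. No paired analysis was possible because the table holds 1 value per group, and no library could be left out for the same reason. The cause was not tested for any of these shifts.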
